A study of Homo sapiens with 20 samples.

Results

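The nuclear genes of oxidative phosphorylation were followed by respiratory complex in WT Jurkat T lymphoblasts and in the CD47- line JinB8 over 6 h in culture. Members were chosen by name and summed counts, with earlier results of these data known. The names were NDUFA, NDUFB, NDUFC, NDUFS or NDUFV with a number, SDHA to SDHD, UQCR with a suffix, CYC1, COX4 to COX8 with a letter from A to C, and ATP5M, ATP5F or ATP5P with a suffix. Members also needed at least 200 counts summed over the 20 libraries. Of 60719 genes in the table, 146 had such a name and 77 reached 200 counts, namely 37 of complex I, 4 of complex II, 10 of complex III, 9 of complex IV and 17 of complex V. All 77 also passed the filter on low counts that left 16327 genes for testing.

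The 69 matching names below 200 counts were 63 numbered pseudogenes and 6 other genes, and 31 of the 69 had no count. The members nearest the limit were UQCRHL with 3163 counts and ATP5F1D with 6180. The genes nearest below it were ATP5MGL with 152 counts and the pseudogenes ATP5F1AP3 with 103 and ATP5PBP1 with 84. The muscle, testis or other tissue-restricted subunit forms COX6A2, COX6B2, COX7A1 and COX8C had 1, 10, 2 and 15 counts in all 20 libraries together, so none was a member.

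WT Jurkat is a human T lymphoblast leukaemia line, and JinB8 is a somatic mutant of it that lacks CD47 at the cell surface, where it is a receptor for thrombospondin-1 (TSP1). The CD47 transcript was still present in JinB8. Both lines were placed in serum-free HITES medium, which contains insulin, transferrin, selenite and hydrocortisone. Untreated cells gave 1 library per line, taken at 1 h. The treated cells of each line were sampled at 1, 3 and 6 h, with 1 library per time, under 3 conditions, which were plate-bound anti-CD3 with anti-CD28 (CD3+CD28), the same with 1 μg/mL TSP1 (CD3+CD28+TSP1), and TSP1 alone. The data cover 10 libraries per line, and each combination of line, treatment and time was sequenced once, so p-values measure only the spread between these libraries. JinB8 is a single line, and the loss of surface CD47 cannot be told apart from its other differences from WT Jurkat. There was no untreated library at 3 or 6 h, and time in the serum-free medium cannot be told apart from time under treatment.

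Oxidative phosphorylation runs on 5 complexes of the inner mitochondrial membrane. Complex I takes electrons from NADH, complex II takes them from succinate, complex III passes them to cytochrome c and complex IV passes them on to oxygen, and complexes I, III and IV pump protons that complex V, the ATP synthase, uses to make ATP. Most subunits are encoded in the nucleus and imported, and a small set that includes core subunits of complexes I, III, IV and V is transcribed from mitochondrial DNA. Naive and resting T cells rely largely on this pathway, and activated T cells add glycolysis to it while they enlarge their mitochondria.

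WT libraries held 20483642 to 31737616 counts and CD47- libraries 16107921 to 28525524. CD47 itself lay at 253 to 371 counts scaled to library size (CPM) in the WT libraries and at 124 to 165 CPM in the CD47- libraries, so the lines did not overlap (log2 difference -1.10 ± 0.08 SE, adjusted p = 1.05e-10, edgeR). T cell markers were expressed in both lines, with CD3D at 291 to 406 CPM in WT and 230 to 531 CPM in CD47- cells. Of 10 such markers 7 differed between the lines. In CD47- cells 5 were higher and 2 lower, against 19.8% and 20.6% of all genes. Among them were CD2 (log2 difference 1.43), CD5 (0.54) and ZAP70 (-0.92). Of 9 markers of other cell types, 4 reached the filter on low counts. The B cell gene CD79A was at 33.8 to 53.9 CPM in WT and 4.14 to 9.96 CPM in CD47- cells, COL1A1 at 1.29 to 3.16 and 3.18 to 6.16 CPM, and the others did not exceed 1.4 CPM. The part of these differences in the results was not tested. One library stood apart. The CD47- CD3+CD28+TSP1 library at 3 h had the fewest counts, 16107921, and the lowest level among all 20 libraries for 56 of the 77 members. The share of all genes with their lowest level there was not counted. The 56 are therefore not read as a result about the members. In this library the members summed to 4444 CPM, against 6132 to 7386 CPM in the other CD47- libraries and 5808 to 7653 CPM in WT. The 13 protein genes of mitochondrial DNA summed to 4986 CPM in it, the highest of the CD47- libraries, where the others had 3161 to 4802 CPM, and the part of this in the results was not tested. The main counts of members are therefore given with and without it, a choice that rests in part on the levels of the members themselves.

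**Figure D1:**
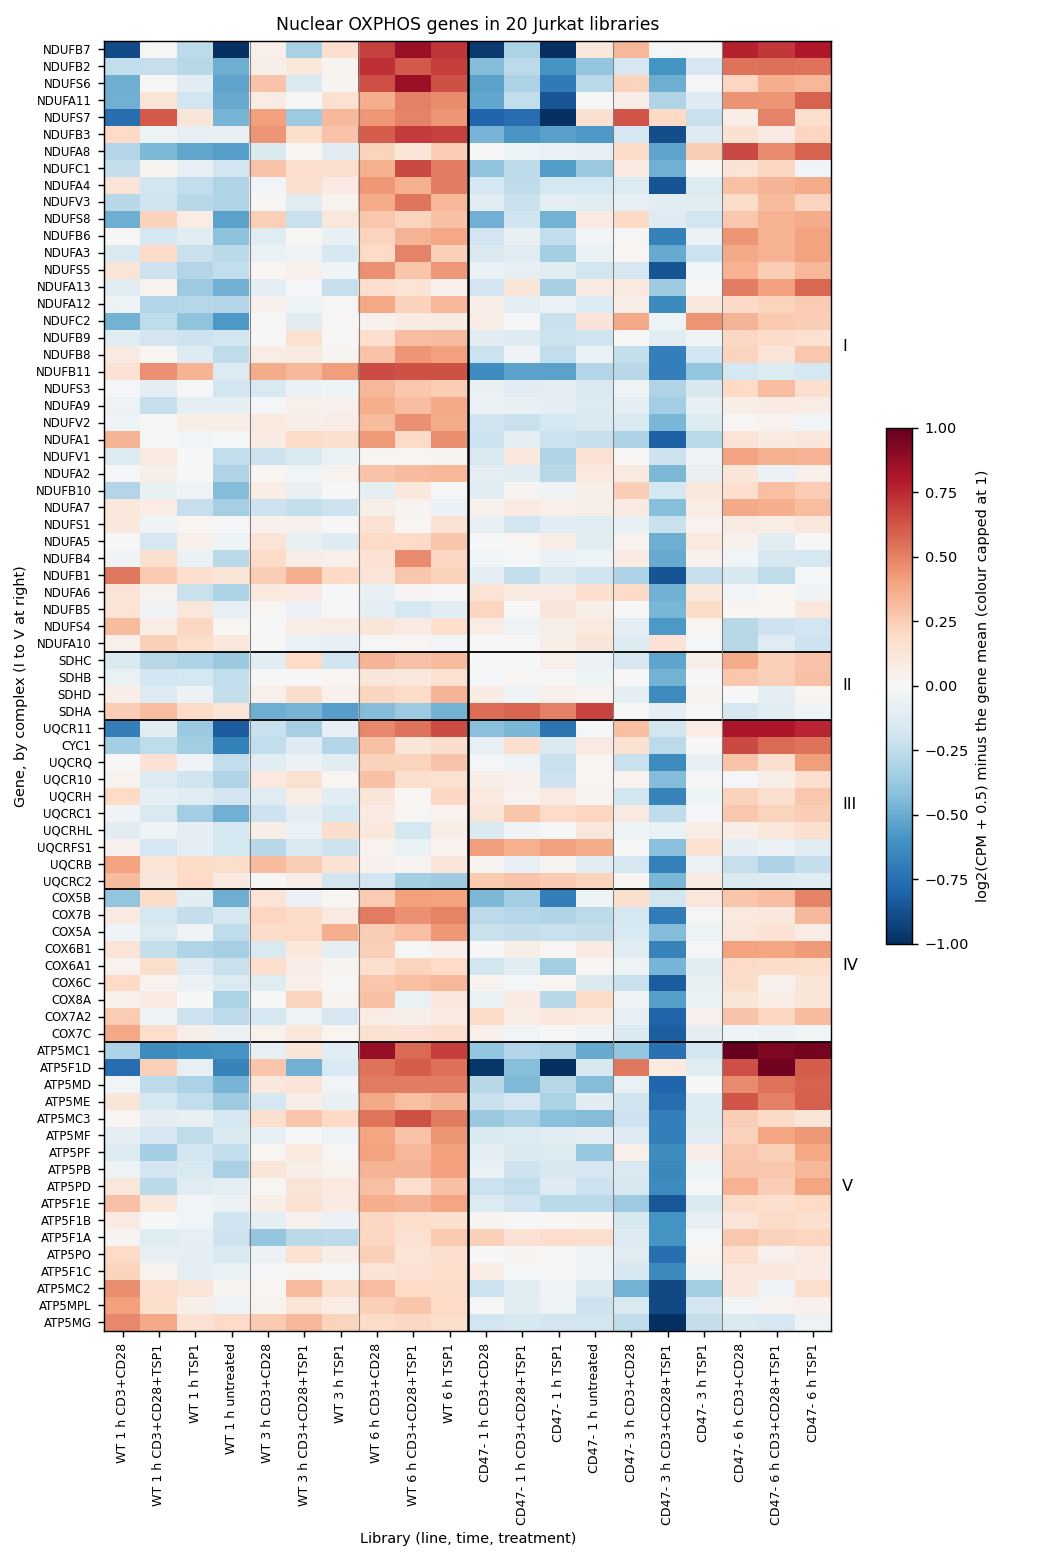
Level of each of 76 of the 77 members in each of the 20 libraries, as log2(CPM + 0.5) minus the mean of the gene over all libraries, with genes ordered by complex and libraries by line, time and treatment, and with colours capped at 1. The 6 h libraries of both lines are high for many genes, and the CD47- CD3+CD28+TSP1 library at 3 h is low across all 5 complexes, with its members summing to 4444 CPM.

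Promoters were read for the members because they moved together with time and, in part, apart from each other. RefSeq promoters on GRCh38.p14 were matched by gene identifier or symbol for 60 of the 77 members. The promoters of the other 17 were not used here. Each promoter covered 300 bases, from 250 before to 50 after the annotated start, and motifs were searched on both strands. The NRF1 core CGCATGCG was in 10 of 60 members (16.7%) and in 2.19% of all 27305 promoters. The ETS motif CCGGAAG, which GABPA can bind, was in 18 members (30.0%) and in 10.7% of all promoters. The YY1 motif AAGATGGC was in 11 members (18.3%) and in 3.03% of all promoters. At least 1 of these 3 was in 32 members (53.3%), against 14.7% of all promoters. The 27305 promoters were not limited to genes expressed here, as the members were. The 2 sets are therefore unlike, and shares among expressed genes alone were not counted.

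Letters chosen after the promoters had been read were the cyclic AMP response element TGACGTCA, found in 5 members (8.33%, against 1.98% of all promoters), and the second NRF1 form CGCAGGCG, found in 9 (15%, against 5.77%). The motifs do not overlap each other in the promoters shown. A match is a description of the sequence, and binding was not measured. Whether any motif goes with the changes of the members was not tested. The 250 bases before the start are shown for ATP5MC1, SDHA and UQCR11, which were among the 3 members with the smallest p for the change from 1 to 6 h in both lines or, for UQCR11, in CD47- cells, for ATP5MC2, whose gene makes the same mature protein as ATP5MC1, and for ATP5PF, the promoter with all 3 of the first motifs. Capitals mark the motifs. In ATP5MC1 they are TGACGTCA, in ATP5MC2 the NRF1 core, in SDHA the second NRF1 form 4 times, in UQCR11 the ETS motif on each strand and the second NRF1 form on the opposite strand, and in ATP5PF the NRF1 core, the YY1 motif and the ETS motif.
ATP5MC1, chr17:48892537-48892786, plus strand: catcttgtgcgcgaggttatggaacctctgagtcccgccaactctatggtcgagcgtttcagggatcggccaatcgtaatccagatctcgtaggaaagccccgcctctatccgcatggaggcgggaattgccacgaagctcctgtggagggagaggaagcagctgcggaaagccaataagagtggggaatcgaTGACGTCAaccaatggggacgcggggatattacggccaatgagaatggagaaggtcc
ATP5MC2, chr12:53676084-53676333, minus strand: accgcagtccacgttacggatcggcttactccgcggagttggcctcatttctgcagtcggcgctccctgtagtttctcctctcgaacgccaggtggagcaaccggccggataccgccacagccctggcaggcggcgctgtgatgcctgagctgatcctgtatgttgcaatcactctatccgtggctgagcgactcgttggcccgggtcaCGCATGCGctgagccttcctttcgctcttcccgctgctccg
SDHA, chr5:218070-218319, plus strand: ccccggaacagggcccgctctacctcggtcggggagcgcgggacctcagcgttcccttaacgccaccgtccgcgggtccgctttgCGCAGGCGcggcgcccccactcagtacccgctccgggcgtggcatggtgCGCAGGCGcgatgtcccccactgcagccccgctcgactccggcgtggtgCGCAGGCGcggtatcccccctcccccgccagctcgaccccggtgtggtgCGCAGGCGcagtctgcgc
UQCR11, chr19:1605463-1605712, minus strand: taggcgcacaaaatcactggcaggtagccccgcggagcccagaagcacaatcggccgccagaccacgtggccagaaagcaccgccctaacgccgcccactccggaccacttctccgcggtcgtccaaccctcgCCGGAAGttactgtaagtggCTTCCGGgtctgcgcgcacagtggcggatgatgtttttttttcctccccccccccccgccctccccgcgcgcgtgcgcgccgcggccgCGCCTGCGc
ATP5PF, chr21:25735055-25735304, minus strand: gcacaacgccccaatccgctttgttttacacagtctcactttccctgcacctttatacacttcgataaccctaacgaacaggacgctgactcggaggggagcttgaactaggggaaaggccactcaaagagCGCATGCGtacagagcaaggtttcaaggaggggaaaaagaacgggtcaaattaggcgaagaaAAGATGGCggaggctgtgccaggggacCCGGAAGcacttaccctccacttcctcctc

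Levels of different genes are compared as CPM per kb of transcript, averaged over the 20 libraries. The median was 60.2 CPM per kb over the 37 members of complex I, 50.4 over the 4 of complex II, 73.3 over the 10 of complex III, 198 over the 9 of complex IV and 144 over the 17 of complex V. Complexes IV and V thus had the higher medians. Within complex I, levels ran from 7.11 CPM per kb for NDUFV3, an accessory subunit of the NADH-oxidising N module, to 145 for NDUFS5, an accessory subunit of the membrane arm. Complex II was the most even, from 33.1 for the membrane anchor SDHC to 74.2 for the iron-sulfur subunit SDHB.

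Complex III ran from 3.05 CPM per kb for UQCRHL to 266 for UQCRH, the hinge protein. These 2 genes are near-identical in sequence, and how reads were divided between them is uncertain. Complex IV ran from 65.9 for COX7B to 431 for COX7C, both small accessory subunits, and complex V from 21.6 for ATP5F1D, the delta subunit of the F1 head, to 344 for ATP5F1B, the catalytic beta subunit. NDUFA4 is counted with complex I by its name, although its protein is known as a subunit of complex IV.

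**Figure D2:**
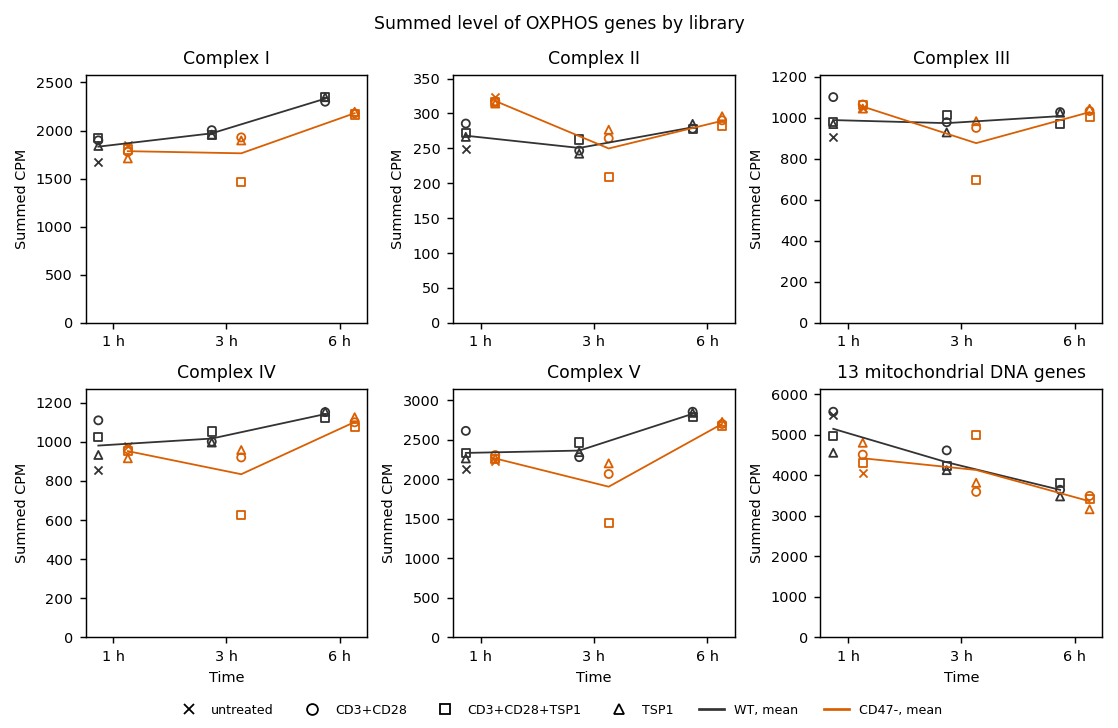
Summed CPM of the members of each complex, and of the 13 protein genes of mitochondrial DNA, by time in each line, with a point for each library and a line through the means. The sums of complexes I, IV and V at 6 h lie above those of the same line at 1 h, and the mitochondrial DNA genes run the other way, from a mean of 5146 to 3640 CPM in WT and of 4419 to 3358 CPM in CD47- cells.

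The comparison of the lines addresses which of these genes depend on CD47 or on what else sets JinB8 apart. In CD47- cells 15 members were lower and 4 were higher than in WT over all 20 libraries (edgeR quasi-likelihood test, adjusted p below 0.05 over all genes). Of all genes tested 20.6% were lower and 19.8% were higher, so the 15 of 77 that were lower stand at about the background share and the 4 that were higher stand below it. The median log2 difference was -0.07 over the members and -0.01 over all genes. Without the CD47- CD3+CD28+TSP1 library at 3 h, 11 members were higher and 12 lower, against 21.3% and 20.5% of all genes, with a median of -0.02 over the members. As these are bulk measurements, fewer cells of a kind and less RNA per cell cannot be told apart.

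By complex, 7 of 37 members of complex I were lower (18.9%) and 1 was higher (2.7%), against 20.6% and 19.8% of all genes. The share that was lower is thus near that of all genes. In complex V 5 of 17 were lower (29.4%) and none was higher, and in complex IV 2 of 9 were lower (22.2%). In complex III 1 of 10 was lower and 2 were higher, and in complex II 1 of 4 was higher. These sets are small. Without the CD47- CD3+CD28+TSP1 library at 3 h, 5 members of complex I were higher and 5 lower, and in complex V 1 was higher and 5 lower. In complex IV 1 was higher and 1 lower, in complex III 3 and 1, and in complex II 1 was higher. Of all genes 21.3% were higher and 20.5% lower in that fit. The uneven split of complex I thus rests on that library. With all libraries and time terms added, 11 members were higher and 22 lower, against 29.2% and 29.6% of all genes, and with the 10 matched pairs as a replicate block 8 were higher and 19 lower, against 27.2% and 27.6%. Scaling by library totals without TMM factors moved the median of all genes by 0.11 in this comparison, 0.12 at 1 h, 0.16 at 3 h and, for CD47- cells, 0.14 between 1 and 3 h. The split of the members then became 13 higher and 9 lower, against 26.8% and 14.2% of all genes, and their median 0.04. It was 7 to 15 by DESeq2, against 21.8% and 21.1% of all genes, 8 to 13 by limma voom with quantile normalization, against 19.9% and 22.1%, and 8 to 12 by upper-quartile factors, against 21.9% and 18.9%. For 3 members, NDUFB1, NDUFB11 and ATP5MG, every CD47- library lay below every WT library, which held for 5.48% of all genes, and no member lay wholly above, which held for 6.01%. Without the library that stood apart the same 3 members lay below and none above, against 6.27% and 6.98% of all genes.

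NDUFB11, an X-linked accessory subunit of the membrane arm of complex I (chrX:47142071-47145466, minus strand), had the largest difference among the members over all libraries. Its level in WT ran from 38.9 CPM through a median of 56.2 to 67.5, and in CD47- cells from 26.5 through 33.5 to 38.8. The highest CD47- library lay just under the lowest WT library, which was the untreated one. The log2 difference was -0.78 ± 0.10 (SE, n = 10 per line, adjusted p = 1.12e-06, edgeR), and the differences within 1, 3 and 6 h were -0.89, -0.82 and -0.81.

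NDUFB1, another accessory subunit of the membrane arm (chr14:92116122-92121917, minus strand), ran from 48.2 through 52.3 to 64.0 CPM in WT and from 24.1 through 38.1 to 43.9 CPM in CD47- cells. The ranges were again apart, and the lowest value was in the CD47- library that stood apart. The log2 difference was -0.50 ± 0.08 (adjusted p = 4.84e-05, edgeR), and -0.42 without that library.

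ATP5MG, the g subunit of the membrane part of the ATP synthase (chr11:118401346-118433278, plus strand), ran from 170.5 through 179 to 214 CPM in WT and from 77.0 through 135 to 149 CPM in CD47- cells. The lines did not overlap. Its log2 difference was -0.50 ± 0.09 (adjusted p = 6.49e-05, edgeR), and -0.42 without the library at 77.0 CPM.

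UQCRB, a subunit of complex III next to the site where ubiquinone binds, ran from 232 through 255 to 301.5 CPM in WT and from 142 through 207 to 232.5 CPM in CD47- cells. The CD47- library was the lower of the pair in 10 of 10 pairs matched for treatment and time, although the ranges overlapped at 232 CPM. The log2 difference was -0.35 ± 0.08 (adjusted p = 0.000903, edgeR). COX5A, a subunit of complex IV that faces the matrix, ran from 39.4 through 53.8 to 63.8 CPM in WT and from 34.7 through 41.4 to 52.1 CPM in CD47- cells, and the ranges overlapped. It was lower in 9 of 10 pairs, by -0.26 ± 0.09 (adjusted p = 0.0338, edgeR), and without the library that stood apart its difference was -0.21 with an adjusted p of 0.082. The call was also lost without any 1 of the CD47- libraries at 1 h, CD47- CD3+CD28 at 3 h, WT CD3+CD28+TSP1 or TSP1 at 3 h and the WT libraries at 6 h, with adjusted p-values of 0.0512 to 0.0663, and by upper-quartile factors, library totals, limma voom or no filter on low counts, at 0.061, 0.217, 0.0563 and 0.0795.

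The members that were higher in CD47- cells were NDUFC2, SDHA, CYC1 and UQCRC1. NDUFC2, a membrane arm subunit of complex I (chr11:78068297-78079862, minus strand), ran from 27.9 through 40.3 to 44.4 CPM in WT and from 35.9 through 47.8 to 57.0 CPM in CD47- cells. The ranges overlapped, but the CD47- library was higher in 10 of 10 pairs, with a log2 difference of 0.32 ± 0.10 (adjusted p = 0.0164, edgeR). CYC1, the cytochrome c1 of complex III, ran from 31.5 through 42.5 to 62.0 CPM in WT and from 42.1 through 55.1 to 80.1 CPM in CD47- cells. It was higher in 9 of 10 pairs, by 0.35 ± 0.13 (adjusted p = 0.039, edgeR). Without any 1 of the WT untreated library, WT CD3+CD28 or TSP1 at 1 or 3 h and the 3 CD47- libraries at 6 h, its adjusted p lay between 0.0516 and 0.0823. CYC1 also lost its call with no filter on low counts and with offsets for transcript GC content, as given below. UQCRC1, a core protein of complex III, was higher by 0.27 ± 0.08 (adjusted p = 0.00805, edgeR).

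SDHA, the flavoprotein of complex II that oxidises succinate (chr5:218303-257082, plus strand), ran from 60.3 through 67.2 to 109.9 CPM in WT and from 79.0 through 88.9 to 142 CPM in CD47- cells. The ranges overlapped because the gene fell with time in both lines, and at each of 1, 3 and 6 h every CD47- library lay above every WT library of that time. Over all libraries the log2 difference was 0.38 ± 0.15 (adjusted p = 0.046, edgeR), and without any 1 of the 4 CD47- libraries at 1 h or of the 6 WT libraries at 3 and 6 h its adjusted p lay between 0.0669 and 0.091. This call was also lost with no filter on low counts and with offsets for transcript GC content, as given below. Within 1, 3 and 6 h the differences were 0.30, 0.48 and 0.32, with adjusted p-values of 0.000626, 1.27e-05 and 0.000376. SDHA has pseudogene copies, and how its reads were assigned among them is uncertain.

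**Figure D3:**
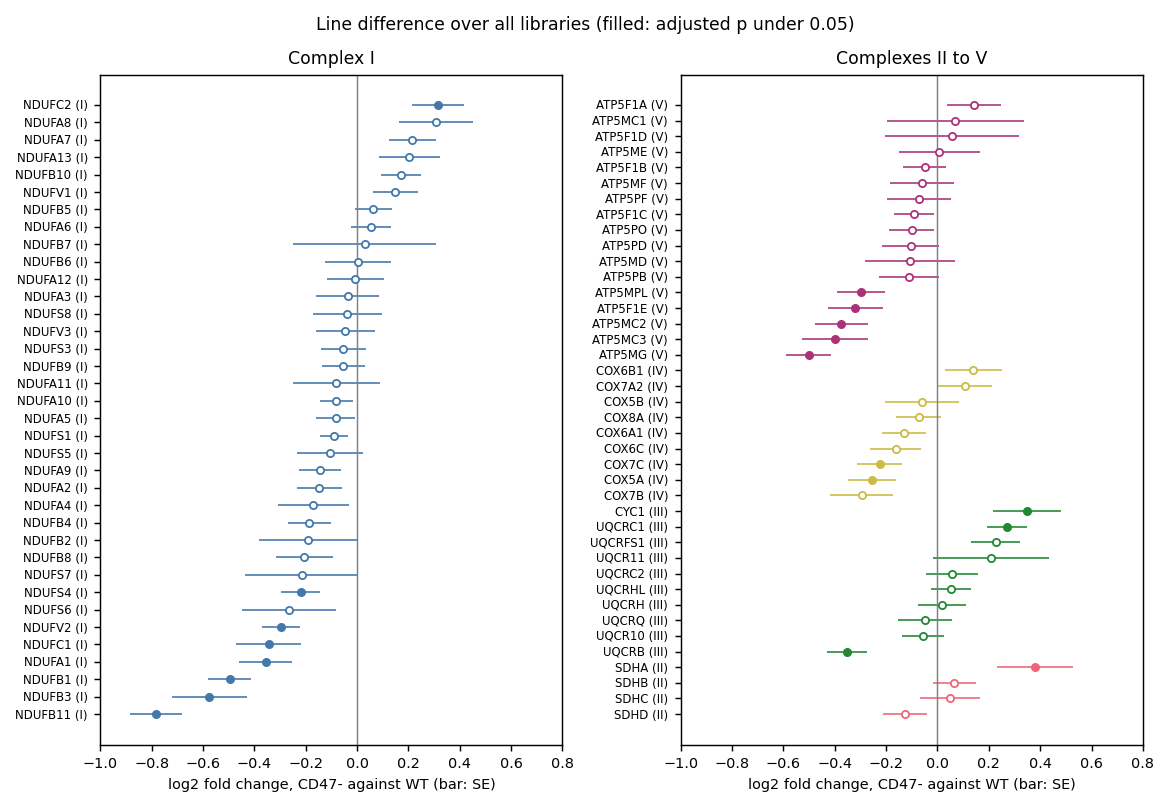
Log2 difference between CD47- and WT over all libraries for 76 of the 77 members, grouped by complex, with bars of 1 SE, where filled points passed the adjusted threshold. The 15 members that were lower include NDUFB11 at -0.78, and the 4 that were higher lie between 0.27 and 0.38.

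Within the time points, averaged over the 3 treated conditions, the count of members that differed between the lines moved with the library that stood apart. At 1 h 7 members were higher and 11 lower in CD47- cells, against 22.2% and 20.8% of all genes, and at 6 h 6 were higher and 15 lower, against 22.8% and 24.5%. At 3 h 2 were higher and 26 lower, against 23.3% and 23.2% of all genes, with a median of -0.20 over the members. Of those 26, 10 belonged to complex I, 1 to complex II, 1 to complex III, 5 to complex IV and 9 to complex V.

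Without the CD47- CD3+CD28+TSP1 library at 3 h, the 3 h comparison had 11 members higher and 14 lower, against 25.2% and 21.1% of all genes, with a median of -0.03. The 14 were 5 of complex I, 1 of complex III, 2 of complex IV and 6 of complex V. The same omission gave 11 higher and 20 lower at 1 h, against 26.8% and 23.9% of all genes, and 17 higher and 21 lower at 6 h, against 27.1% and 27.7%. By library totals without TMM the splits, higher to lower, were 15 to 6 at 1 h, where 29.9% of all genes were higher and 14.9% lower, 9 to 13 at 3 h, against 33.6% and 14.4%, and 15 to 13 at 6 h, against 25.7% and 20.8%. At 6 h they were also 16 to 12 by limma voom with quantile normalization, against 23.9% and 24.9% of all genes, 15 to 11 by upper-quartile factors, against 26.8% and 21.2%, and 9 to 14 by DESeq2, against 22.6% and 22% of all genes.

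The change with time addresses how these genes moved after plating and treatment. In WT cells 42 of the 77 members rose from 1 to 6 h and 2 fell, where 25.7% of all genes rose and 24.8% fell. In CD47- cells 45 rose and 6 fell, where 26.0% of all genes rose and 27.0% fell. The median log2 change over the members was 0.30 in WT and 0.33 in CD47- cells, and that over all genes was 0.00 in both. Without the library that stood apart the counts were 51 and 5 in WT, against 29.0% and 28.3% of all genes, and 50 and 7 in CD47- cells, against 28.8% and 30.0%.

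Every 6 h library lay above every 1 h library for 47 members in WT, against 28.1% of all genes, and for 54 in CD47- cells, against 29.7%. Every 6 h library lay below every 1 h library for 5 members in WT, against 28.4%, and for 8 in CD47- cells, against 31.4%. The 34 members that rose in both lines were 44.2% of the 77, 81.0% of the 42 in WT and 75.6% of the 45 in CD47- cells. Of all genes tested 2894 rose in both lines, which were 17.7% of 16327, 69.0% of those that rose in WT and 68.3% of those that rose in CD47- cells. Without the library that stood apart 44 members rose in both, 57.1% of the 77, against 20.1% of all genes. Among the members SDHA and UQCRC2 fell in both, and none was called in opposite directions. Over the 77 members the changes in the 2 lines had a Spearman rho of 0.795 and a Pearson r of 0.82, against 0.667 and 0.63 over all genes, across genes that were measured in the same libraries and are not independent.

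The rise had not been reached at 3 h. In WT cells 7 members rose and 2 fell from 1 to 3 h, against 16.9% and 17.4% of all genes, with a median of 0.07. In CD47- cells 7 rose and 16 fell, against 18.0% and 20.1%, with a median of -0.10. Without the library that stood apart 15 rose and 6 fell in CD47- cells, against 18.8% and 18.5% of all genes, with a median of 0.07. In WT 17 then rose and 5 fell, against 21.3% and 22% of all genes, and the cause of this shift was not tested. For CD47- cells at 3 h the split was also 14 to 6 by library totals without TMM, where 27.1% of all genes rose and 11.8% fell, 9 to 7 by limma voom with quantile normalization, against 17% and 19%, and 9 to 12 by upper-quartile factors, against 21.1% and 17.1%. In WT the same scalings gave 21 to 1, against 23.2% and 12.1% of all genes, 9 to 1, against 18.3% and 17.2%, and 11 to 1, against 18.4% and 16.5%.

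**Figure D4:**
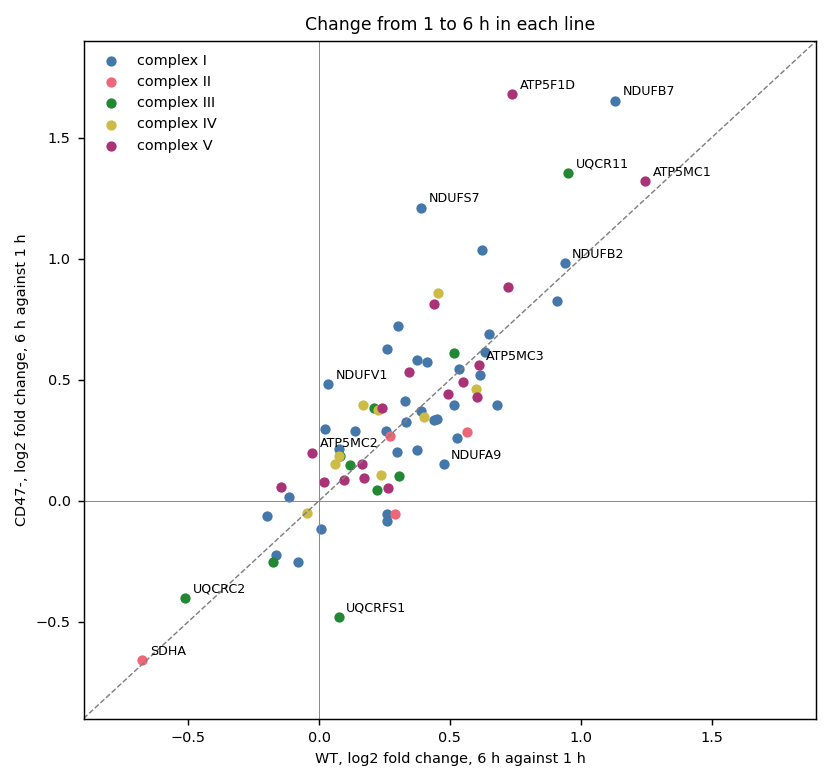
Log2 change from 1 to 6 h in WT on the horizontal axis and in CD47- cells on the vertical axis for each of 76 of the 77 members, coloured by complex. Most points lie above 0 in both lines, SDHA and UQCRC2 lie below 0 in both, and UQCRFS1 lies near 0 in WT and at -0.48 in CD47- cells.

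In complex I, the largest set, 22 of 37 members rose in WT (median log2 change 0.37) and 25 of 37 in CD47- cells (median 0.34), and 2 fell in CD47- cells, NDUFA10 and NDUFS4. As shares these are 59.5% and 67.6%, beside 58.8% of complex V in each line. Of all genes 25.7% rose and 24.8% fell in WT, and 26.0% rose and 27.0% fell in CD47- cells. In its membrane arm 13 of 20 rose in WT and 15 of 20 in CD47- cells. In the N module 5 and 6 of 10 rose, and in the Q module, which passes electrons to ubiquinone, 3 of 6 rose in each line. In complex V 10 of 17 rose in each line and none fell, with medians of 0.34 and 0.43. They included 6 of the 9 members of the stalk and membrane part, 2 of the 5 of the F1 head and 2 of the 3 genes of the c ring in each line.

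In complex IV 3 of 9 rose in WT (33.3%, against 25.7% of all genes) and 5 of 9 in CD47- cells (55.6%, against 26.0%). The medians were 0.23 and 0.34. In complex III 4 of 10 rose and 1 fell in WT, and 3 rose and 3 fell in CD47- cells, with medians of 0.17 and 0.12. As shares these are 40.0% and 10.0% in WT and 30.0% and 30.0% in CD47- cells. The shares in CD47- cells are near the 26.0% and 27.0% of all genes. In complex II SDHB and SDHC rose in both lines and SDHD in WT, while SDHA fell in both. Without the library that stood apart, 6 of 9 members of complex IV, 25 of 37 of complex I, 5 of 10 of complex III and 12 of 17 of complex V rose in WT, and 2 of complex I and 2 of complex III fell. In CD47- cells 29 of complex I and 11 of complex V then rose and 3 of complex I fell, and the counts of complexes II, III and IV were as before. Of all genes 29.0% rose and 28.3% fell in WT in that fit, and 28.8% rose and 30.0% fell in CD47- cells. By part, the membrane arm of complex I then had 16 of 20 that rose in each line, the N module 5 and 8 of 10, the Q module 3 and 4 of 6 and the F1 head 4 and 3 of 5 in WT and CD47- cells, and the counts of the c ring and of the stalk and membrane part were as before.

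ATP5MC1 (chr17:48892765-48895871, plus strand) is 1 of 3 genes that encode the same mature c subunit, which forms the rotating ring of the ATP synthase. In WT it was at 16.4 CPM untreated and 20, 15.9 and 16.2 CPM under CD3+CD28, CD3+CD28+TSP1 and TSP1 at 1 h, at 23.6, 27.2 and 23.0 CPM at 3 h, and at 46.0, 37.1 and 40.5 CPM at 6 h. In CD47- cells, in the same order, it was at 17.4, 18.9, 20.3 and 19.8 CPM at 1 h, at 18.9, 14.7 and 21.9 CPM at 3 h and at 50.6, 48.0 and 48.8 CPM at 6 h. Every 6 h library lay above every earlier library of its line. At 3 h all 3 WT libraries lay above all WT libraries of 1 h, and the CD47- libraries of 3 h overlapped those of 1 h. The log2 change from 1 to 6 h was 1.25 ± 0.12 in WT (adjusted p = 1.65e-06) and 1.32 ± 0.12 in CD47- cells (adjusted p = 7.48e-07, edgeR).

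Of the other c ring genes, ATP5MC3 rose by 0.61 ± 0.10 in WT (adjusted p = 0.000179) and by 0.56 ± 0.10 in CD47- cells (adjusted p = 0.000345, edgeR), from 95.4 to 109 CPM at 1 h to 153 to 168 CPM at 6 h in WT, with no overlap. ATP5MC2 had log2 changes of -0.03 in WT (adjusted p = 0.866) and 0.20 in CD47- cells (adjusted p = 0.148, edgeR). It had the higher level per kb, 262 CPM per kb against 106 for ATP5MC3 and 46.1 for ATP5MC1. Between the lines ATP5MC2 and ATP5MC3 were lower in CD47- cells, by -0.37 ± 0.10 (adjusted p = 0.00572) and -0.40 ± 0.13 (adjusted p = 0.0153, edgeR), in 10 of 10 pairs each, while ATP5MC1 had a difference of 0.07 (adjusted p = 0.862). The differences between these genes in their changes were not tested.

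SDHA went the other way from most members. In WT it was at 96.9 CPM untreated and 104.9, 109.9 and 101 CPM under the 3 treatments at 1 h, at 62.9, 63.9 and 60.3 CPM at 3 h, and at 65.4, 68.9 and 63.7 CPM at 6 h. In CD47- cells it was at 142, 130.5, 133 and 126 CPM at 1 h, at 88.9, 82.7 and 88.9 CPM at 3 h and at 79.0, 82.0 and 85.8 CPM at 6 h. All libraries of 3 and 6 h lay below all libraries of 1 h in each line, and the libraries of 6 h were close to those of 3 h. It fell by 0.68 ± 0.06 on the log2 scale from 1 to 6 h in WT (adjusted p = 3.93e-07) and by 0.66 ± 0.06 in CD47- cells (adjusted p = 3.83e-07, edgeR). UQCRC2, a core protein of complex III, fell by 0.51 ± 0.10 in WT (adjusted p = 0.000767) and by 0.40 ± 0.10 in CD47- cells (adjusted p = 0.00412, edgeR).

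NDUFB2, a small membrane arm subunit of complex I, was at 24.1, 28.6, 29.0 and 28.0 CPM in WT at 1 h and at 56.7, 52.3 and 55.1 CPM at 6 h. CD47- libraries had 25.9, 25.0, 28.3 and 22.5 CPM at 1 h and 49.7, 50.15 and 49.8 CPM at 6 h. The groups did not overlap in either line, and its log2 changes were 0.94 ± 0.11 (adjusted p = 7.75e-06) and 0.98 ± 0.11 (adjusted p = 4.55e-06, edgeR). UQCR11, a small subunit of complex III, was at 15.2, 16.9, 25.4 and 21.1 CPM in WT at 1 h and at 38.5, 40.1 and 43.5 CPM at 6 h, and in CD47- cells it was at 27.0, 20.4, 19.9 and 16.3 CPM at 1 h and at 48.7, 48.5 and 46.95 CPM at 6 h. The 6 h libraries again stood above all of 1 h, with log2 changes of 0.95 ± 0.13 (adjusted p = 2.7e-05) and 1.35 ± 0.13 (adjusted p = 9.4e-07, edgeR).

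Some of the most abundant members had small changes. ATP5F1B, the catalytic subunit of the ATP synthase, had log2 changes of 0.16 in WT (adjusted p = 0.169) and 0.15 in CD47- cells (adjusted p = 0.198), and COX7C had changes of -0.05 in both lines (adjusted p = 0.766 and 0.745, edgeR). UQCRH had changes of 0.12 (adjusted p = 0.394) and 0.15 (adjusted p = 0.285). NDUFS5 and SDHB, the members of complexes I and II with the highest levels per kb, rose in both lines, NDUFS5 by 0.51 in WT (adjusted p = 0.00498) and 0.39 in CD47- cells (adjusted p = 0.0216), and SDHB by 0.27 in each (adjusted p = 0.018 and 0.0187, edgeR).

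**Figure D5:**
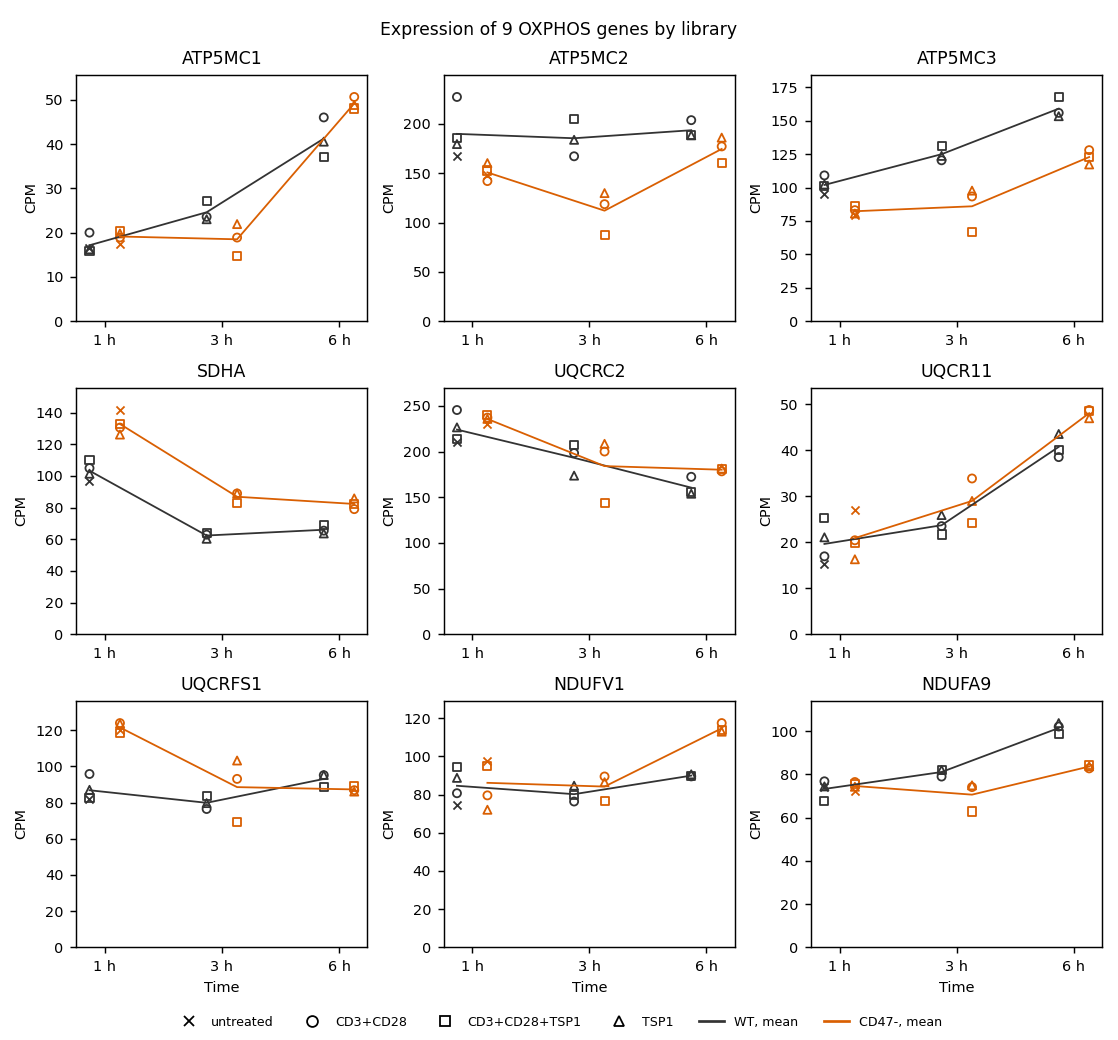
CPM by library at 1, 3 and 6 h in each line for the 3 c ring genes ATP5MC1, ATP5MC2 and ATP5MC3 and for SDHA, UQCRC2, UQCR11, UQCRFS1, NDUFV1 and NDUFA9, with a line through the means. ATP5MC1 stands at 37.1 to 50.6 CPM at 6 h in both lines, and UQCRFS1 starts higher in CD47- cells, at 119 to 124 CPM, and ends at 86.1 to 88.9 CPM.

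Whether the lines differed in their change from 1 to 6 h was tested as an interaction. Only 1 member had a higher and 2 had a lower change in CD47- cells than in WT, against 6.46% and 10.2% of all genes, and the median difference over the members was 0.01. Without the library that stood apart 4 members had a higher and 7 a lower change, against 10.6% and 15.4% of all genes, and UQCRFS1, NDUFV1 and NDUFA9 were called in both fits. With another library left out each of the 3 lost its call, UQCRFS1 in 5 cases (adjusted p up to 0.0791), NDUFV1 in 7 (up to 0.0967) and NDUFA9 in 10 (up to 0.163). No member was called without WT CD3+CD28+TSP1 at 1 h, CD47- CD3+CD28 at 6 h or CD47- TSP1 at 6 h. NDUFV1 also lost its call without treatment terms, NDUFA9 with no filter on low counts, and both with offsets for transcript GC content, as given below.

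UQCRFS1, the Rieske iron-sulfur protein of complex III, was at 82.1, 95.9, 82.4 and 87.1 CPM in WT at 1 h and at 95.2, 88.8 and 95.3 CPM at 6 h. In CD47- cells it was at 120.2, 124, 119 and 124 CPM at 1 h and at 86.9, 88.9 and 86.1 CPM at 6 h. The lines were apart at 1 h and overlapped at 6 h. The log2 change was 0.07 in WT (adjusted p = 0.554) and -0.48 in CD47- cells (adjusted p = 0.000906), and their difference was -0.55 ± 0.14 (adjusted p = 0.0154, edgeR).

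NDUFV1, the subunit of complex I that binds NADH and the flavin, was at 74.6, 80.8, 94.4 and 88.8 CPM in WT at 1 h and at 89.6, 89.7 and 90.7 CPM at 6 h. In CD47- cells it was at 97.9, 79.6, 95.2 and 72.1 CPM at 1 h and at 117.5, 114 and 113 CPM at 6 h. The lines overlapped at 1 h and were apart at 6 h, and the difference between their changes was 0.45 ± 0.13 (adjusted p = 0.0287, edgeR). NDUFA9, a subunit at the Q module, was at 74.1, 76.8, 67.7 and 74.4 CPM in WT at 1 h and at 102, 98.4 and 104 CPM at 6 h, and in CD47- cells it was at 72.3, 76.4, 75.4 and 74.3 CPM at 1 h and at 82.8, 84.3 and 83.7 CPM at 6 h. The lines overlapped at 1 h, all 3 WT libraries lay above all CD47- libraries at 6 h, and the difference between the changes was -0.33 ± 0.10 (adjusted p = 0.0326, edgeR).

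The treatments were compared with TSP1 as the variable and with CD3 and CD28 engagement as the variable, within each line over 1, 3 and 6 h. With the filter on low counts, no member was called in any of the 4 comparisons by edgeR, DESeq2 or limma voom with quantile normalization. For CD3+CD28+TSP1 against CD3+CD28 in WT, 0.00% of all genes were called, 1 of 77 members and 2.24% of all genes had an unadjusted p below 0.05 and the member differences ran from -0.17 to 0.23. For the same comparison in CD47- cells 0.00% of all genes were called, 11 members (14.3%) and 10.9% of all genes had an unadjusted p below 0.05 and the median over the members was -0.15. For CD3+CD28+TSP1 against TSP1 in WT 0.0919% of all genes were called, and 1 of 77 members and 5.00% of all genes had an unadjusted p below 0.05. In CD47- cells 0.00% of all genes were called, 17 members (22.1%) and 16.1% of all genes had an unadjusted p below 0.05 and the median over the members was -0.15.

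Both CD47- comparisons rest on the library that stood apart, since it is 1 of the 3 CD3+CD28+TSP1 libraries of that line. Without it 0 and 4 members had an unadjusted p below 0.05, against 2.93% and 9.25% of all genes, and the median over the members was 0.00 in each. With it, the 13 protein genes of mitochondrial DNA had medians of 0.35 against CD3+CD28 and 0.38 against TSP1, where the members had -0.15 in each, and none of the 13 was called. In WT the medians over the 77 members were -0.03 against CD3+CD28 and 0.03 against TSP1.

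Other genes of the pathway were taken from lists, whose counts stand beside the shares of all genes given above (19.8% higher and 20.6% lower between the lines, 25.7% and 24.8% rising and falling in WT, and 26.0% and 27.0% in CD47- cells). Of the 13 protein genes of mitochondrial DNA, none rose and 4 fell from 1 to 6 h in WT, and none rose and 5 fell in CD47- cells, with median changes of -0.40 and -0.41, where the nuclear members had medians of 0.30 and 0.33. Between the lines 3 of 13 were lower in CD47- cells, near the background share, and none was higher. MT-ND6, the complex I gene on the light strand, was lower by -0.70 (adjusted p = 0.000152), MT-CO3 by -0.31 (adjusted p = 0.000263) and MT-CO2 by -0.39 (adjusted p = 0.00988, edgeR). MT-ND6 ran from 17.74 to 25.77 CPM in WT and from 5.695 through a median of 13.85 to 15.83 CPM in CD47- cells. These values keep the library that stood apart. The strand setting of the counting is not given in the sources used here, so reads of MT-ND6 and of the opposite strand may not have been separated. The library kit selects polyadenylated RNA, and the polyadenylation of mitochondrial transcripts was not measured.

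Of 46 assembly factors, which help the complexes form, 29 rose and 2 fell in WT from 1 to 6 h (median 0.40), and 27 rose and 5 fell in CD47- cells (median 0.35). Between the lines 7 of 46 were higher and 7 lower in CD47- cells, both under the background shares. TTC19, which acts at complex III, was lower by -0.40 (adjusted p = 1.11e-05), SURF1, an assembly factor of complex IV, was higher by 0.56 (adjusted p = 0.0011), and COX20, which helps complex IV assembly, was lower by -0.43 (adjusted p = 0.00164, edgeR).

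Of 13 regulators of mitochondrial genes, 6 rose and none fell in WT, 8 rose and 1 fell in CD47- cells, and 4 were higher and 2 lower in CD47- cells than in WT. GABPA, the DNA-binding part of an ETS factor, was lower by -0.34 (adjusted p = 8.11e-05), LRPPRC, which stabilises mitochondrial mRNA, was higher by 0.41 (adjusted p = 0.000401), and PPARGC1A, a coactivator of mitochondrial genes, was lower by -1.49 (adjusted p = 0.00049, edgeR) between low levels, 0.293 to 0.881 CPM in WT and 0.0397 to 0.448 CPM in CD47- cells, where 3 counts in a library equal 0.0978 to 0.155 CPM. Of 6 subunit genes outside the name pattern that were tested, 2 rose and 2 fell in WT and 2 rose in CD47- cells, and ATP5IF1, the inhibitor of the ATP synthase, was lower in CD47- cells by -0.34 (adjusted p = 0.00129, edgeR).

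The GC content of the transcripts moved with several of these differences. For the change from 1 to 6 h in CD47- cells, the Spearman rho with GC was 0.47 over the 77 members and 0.27 over 16004 genes, and in WT it was 0.21 and 0.08. For the difference between the lines over all libraries it was 0.37 and 0.22, and for the interaction 0.42 and 0.27. The difference between the lines at 1 h had a rho of -0.071 over the members and 0.031 over all genes. At 3 and 6 h it was 0.41 and 0.42 over the members and 0.23 and 0.24 over all genes. For the change from 1 to 3 h it was 0.41 and 0.23 in CD47- cells and 0.096 and -0.0026 in WT. The treatment comparisons, in which no member was called, had values over the members of 0.57 in WT and 0.64 in CD47- cells for CD3+CD28+TSP1 against CD3+CD28, against 0.41 and 0.27 over all genes, and 0.28 and 0.70 against TSP1, against 0.23 and 0.43 over all genes. These correlations are across genes of the same libraries. All 8 members with a GC content of 60% or more rose in CD47- cells (median 0.88), and 4 of them rose in WT (median 0.45). Of all 1965 genes tested with such a GC content 44.2% rose in CD47- cells (median 0.39) and 30.0% in WT (median 0.14), against 26.0% and 25.7% of all genes. With GC offsets, an alternative added after seeing the data, 44 members rose and 3 fell in WT, against 26.1% and 26.4% of all genes, and 41 rose and 5 fell in CD47- cells, against 25.8% and 27.1%. Between the lines 3 were higher and 17 lower in CD47- cells, against 20.9% and 20.5% of all genes. Of the interaction calls UQCRFS1 alone was left, at -0.50 (adjusted p = 0.0202, edgeR), where 7.01% of all genes had a higher and 9.32% a lower change in CD47- cells. Between the lines SDHA and CYC1 lost their calls with the offsets (adjusted p = 0.103 and 0.178, edgeR).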

How the data were processed

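RNA sequencing was done on 20 libraries of WT and CD47- Jurkat cells. Reads had been trimmed (cutadapt 1.18) and aligned by STAR 2.4.2a to hg38 (GRCh38) with GENCODE 36, and the authors deposited RSEM 1.3.3 expected counts per gene, which carry no scaling for depth or length. For their own analysis they also name a batch correction with ComBat. Which libraries formed the batches is not given in the sources used here, so it was not repeated, and the part of a batch in the differences between lines and times was not tested. The strand setting is not given in the sources used here. In each deposited file 2 further columns matched no sample here and were left out. Library sums ran from 16107921 to 31737616 counts, and each member had at least 3163 counts over the 20 libraries.

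Estimated counts were rounded and tested with edgeR 4.0.16 (R 4.3.3, limma 3.58.1, DESeq2 1.42.0, data.table version 1.17.8). Genes were kept by filterByExpr by line with a minimum count of 10 and a minimum total count of 15, scaling used TMM factors, and p-values of the quasi-likelihood test were adjusted over 16327 genes after Benjamini and Hochberg, with a threshold of 0.05. The line comparison had no other terms. The other comparisons came from 1 model of all 20 libraries with coefficients for every treatment of a line and terms for 3 and 6 h per line, in which the untreated libraries have coefficients of their own and do not enter the change with time. CPM use TMM-scaled totals, and lengths and GC content come from GENCODE 44. Promoters came from a RefSeq table of GRCh38.p14.

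The members and lists were chosen with earlier results of these data known. Named genes were, by complex, the called members with the largest increase and decrease between the lines among those moving alike in at least 9 of 10 pairs, the member with the highest level per kb, the 3 with the smallest p for each change from 1 to 6 h and for the interaction, those nearest the limit of 200 counts, and up to 3 called genes per list with the smallest p between the lines. Other members named were chosen after their values were seen. Alternatives were other scalings, filters and tools, each library left out, matched pairs as a block, other time and treatment terms and GC offsets. Scripts were tested on simulated data. For WT from 1 to 6 h, 10% of genes changed 1.25-fold were recovered, 56% at 1.5-fold and 98% at 4-fold, and 6.82% of calls were false. The line comparison recovered 52% at 1.25-fold and 94% at 1.5-fold, with 3.89% false calls. It was simulated without the changes over time of the real libraries. A member without a call may thus still have changed by such small folds. The values of 1 member of complex I are not reported here, and it is left out of the plots by gene, while counts and medians include it.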

Additional observations from a re-analysis of the deposited data

Results flagged for a closer look

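Samples far from the rest of their group were looked for among 96 groups of values, of which 12 had one. Chance gives about 1 in 20 for separate groups. These groups share libraries and genes, so the 12 flagged samples are not compared with that rate. Most were the CD47- CD3+CD28+TSP1 library at 3 h, which was the lowest of the 10 CD47- libraries for SDHB at 52.8 CPM, COX7C at 144 CPM, ATP5MG at 77.0 CPM and ATP5F1B at 347 CPM. It was also the lowest for the summed level of complex II at 209 CPM, complex III at 694 CPM, complex IV at 625 CPM, complex V at 1450 CPM and all members at 4440 CPM. Its summed level of complex I, at 1464 CPM, was not far enough from the next library to pass the same limit. The WT CD3+CD28 library at 1 h was the highest of the 4 WT libraries of that time for UQCRB at 301 CPM and ATP5MC1 at 20 CPM, and the highest of the 10 WT libraries for COX7C at 332 CPM.

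The change from 1 to 6 h differed between the lines, by the interaction term, for 3 members. It was lower in CD47- cells than in WT by -0.327 on the log2 scale for NDUFA9 and by -0.5549 for UQCRFS1. For NDUFV1 it was higher by 0.4473. Of the members 1.3% had a higher and 2.6% a lower change in CD47- cells, against 6.46% and 10.2% of all genes. Both shares of the members thus lie below those of all genes. Each of the 3 lost its call in some fits with 1 library left out. With GC offsets UQCRFS1 alone kept its call.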

How the results depend on the processing

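With all libraries kept, counts of members called stayed within 1.5 times of those given above, with the exceptions named here. The line comparison gave 33 members (11 higher, 22 lower) with time terms added, where 29.2% of all genes were higher and 29.6% lower, and 27 (8 higher, 19 lower), against 27.2% and 27.6% of all genes, with the 10 pairs matched for treatment and time as a replicate block. The change from 1 to 3 h in WT gave 22 by library totals without TMM, and that in CD47- cells gave 15 (5 higher, 10 lower) with GC offsets, against 17.5% and 19.6% of all genes. The interaction gave 7 (6 higher, 1 lower) with no filter on low counts, against 3.37% and 3.34%, and 1 with GC offsets, and CD3+CD28+TSP1 against TSP1 in CD47- cells gave 2 (1 higher, 1 lower) with no filter, against 0.976% and 0.333%. The causes were not tested. With each library left out in turn, the count ran from 15 to 23 between the lines, 11 to 31 at 1 h, 17 to 37 at 3 h, 9 to 38 at 6 h, 3 to 22 for WT from 1 to 3 h, 30 to 56 for WT from 1 to 6 h, 13 to 32 for CD47- cells from 1 to 3 h, 38 to 57 for CD47- cells from 1 to 6 h and 0 to 11 for the interaction, and it was 0 throughout for the treatments. The share of all genes called moved in the same fits, from 38.4% to 41.8% between the lines, 34.2% to 50.7% at 1 h, 36.7% to 47.4% at 3 h, 38.1% to 54.7% at 6 h, 25.6% to 43.3% and 42.2% to 57.3% for WT from 1 to 3 h and from 1 to 6 h, 28.1% to 37.9% and 44.1% to 58.9% for CD47- cells, 8.86% to 26.1% for the interaction and 0.00% to 0.255% for the treatments, so these counts are not read as results about the members. The highest counts came without the CD47- CD3+CD28+TSP1 library at 3 h, or at 3 h (37) and for CD47- cells from 1 to 3 h (32) without the CD47- TSP1 library at 3 h. The count at 1 h was 11 without CD47- CD3+CD28 at 1 h, and that at 3 h 17 without WT CD3+CD28+TSP1 at 3 h. At 6 h it was 9 without WT CD3+CD28+TSP1 or CD47- TSP1 of 6 h, 11 without CD47- CD3+CD28 and 13 without WT TSP1 of 6 h. For WT from 1 to 3 h it was 3 to 5 without any of WT CD3+CD28+TSP1 or TSP1 at 1 h and the 3 WT libraries at 3 h. For CD47- cells from 1 to 3 h it was 13 to 15 without CD47- CD3+CD28 or CD3+CD28+TSP1 at 1 h, WT CD3+CD28 at 6 h or CD47- TSP1 at 6 h. The interaction was 0 without WT CD3+CD28+TSP1 at 1 h, CD47- CD3+CD28 at 6 h or CD47- TSP1 at 6 h, 1 without WT TSP1 at 1 h, CD47- CD3+CD28 at 1 h or any WT library at 6 h, 5 without CD47- CD3+CD28+TSP1 at 1 h and 6 without WT CD3+CD28 at 1 h.

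For the named genes 392 of 455 values kept their direction and side of the threshold, 63 lost the call and none turned. Among these, SDHA reached an adjusted p of 0.091, CYC1 0.0823 and COX5A 0.082 between the lines with 1 library left out, and UQCRFS1 0.0791, NDUFV1 0.0967 and NDUFA9 0.163 in the interaction. With no filter on low counts SDHA, CYC1 and NDUFA9 also lost the call, at 0.0601, 0.0506 and 0.154, and without treatment terms NDUFV1 did, at 0.104. UQCRHL and ATP5F1D had the fewest counts of the members.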
